A study of Homo sapiens with 6 samples.

Results

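The lamins, the LINC complex and the inner nuclear membrane proteins that join them were followed at the transcript level in Jurkat cells, with and without the chemokine CXCL12. The group holds 10 genes: the lamins LMNA, LMNB1 and LMNB2, the inner membrane proteins LBR, EMD and TMPO, and the LINC genes SUN1, SUN2, SYNE1 and SYNE2. They were picked by gene symbol, and for each gene the brightest of its probe sets by mean signal stands for it. Of the 10, 9 had a named probe set among 21448 probe sets on the array, exactly 1 each. No probe set was named LMNB2 here, so it was not analysed.

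Jurkat is an established human line of T-cell acute lymphoblastic leukaemia (T-ALL). The CXCL12 group (n = 3) received the chemokine at 100 ng/ml for 15 min after 90 min without serum, and the untreated group (n = 3) had the same serum-free period without it. Growth medium held 10% serum, RNA was total RNA, and each sample was run on its own Affymetrix array. All cells come from a single line, and the titles call the samples biological replicates without saying whether the cultures were separate, so p-values reflect only how these samples spread, and part of that spread may be technical.

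The lamina is a meshwork of intermediate filament proteins under the inner nuclear membrane that sets nuclear shape and stiffness. B-type lamins are present in nearly all cells, whereas A-type lamins are low in many lymphoid cells and rise in stiff tissues. SUN proteins of the inner membrane bind the KASH ends of nesprins in the outer membrane, and this LINC bridge ties the lamina and chromatin to actin, microtubules and their motors. In migrating T cells, whose nucleus must pass narrow gaps, these parts are studied for nuclear deformation, and CXCL12 is a chemokine that drives such migration through CXCR4.

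The promoters of these genes are shown first, because the transcript that responded most in the same cells, EGR1, has a promoter of a known stimulus-responsive kind. Each sequence is the stretch of 250 bases before an annotated gene start, from RefSeq on build GRCh38.p14, printed 5′ to 3′ on the gene's strand. Capitals mark matches on either strand to the CArG box, the element bound by serum response factor, or to the CCAAT box (CCAAT), the element bound by the factor NF-Y. EGR1 is shown as the responding gene, SYNE1 (the start farthest upstream) as the gene with the smallest p, EMD as the gene that varied most between arrays, and SUN2 (the start farthest upstream) as an inner membrane LINC gene.
EGR1, chr5:138465229-138465478, plus strand: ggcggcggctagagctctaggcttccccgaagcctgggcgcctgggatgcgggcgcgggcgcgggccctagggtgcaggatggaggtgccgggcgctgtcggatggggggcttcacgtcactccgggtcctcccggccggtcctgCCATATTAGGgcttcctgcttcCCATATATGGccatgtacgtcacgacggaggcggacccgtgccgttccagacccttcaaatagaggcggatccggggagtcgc
SYNE1, chr6:152637363-152637612, minus strand: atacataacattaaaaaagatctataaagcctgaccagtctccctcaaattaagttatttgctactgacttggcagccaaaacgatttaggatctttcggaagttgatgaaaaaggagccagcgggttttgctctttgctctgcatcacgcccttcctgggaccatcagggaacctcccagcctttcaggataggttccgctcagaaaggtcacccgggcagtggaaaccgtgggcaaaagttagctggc
EMD, chrX:154379045-154379294, plus strand: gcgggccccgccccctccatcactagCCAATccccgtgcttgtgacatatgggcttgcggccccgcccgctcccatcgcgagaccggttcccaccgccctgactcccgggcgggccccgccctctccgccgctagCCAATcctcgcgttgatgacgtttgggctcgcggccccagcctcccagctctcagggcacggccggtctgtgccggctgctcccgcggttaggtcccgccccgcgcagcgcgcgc
SUN2, chr22:38755999-38756248, minus strand: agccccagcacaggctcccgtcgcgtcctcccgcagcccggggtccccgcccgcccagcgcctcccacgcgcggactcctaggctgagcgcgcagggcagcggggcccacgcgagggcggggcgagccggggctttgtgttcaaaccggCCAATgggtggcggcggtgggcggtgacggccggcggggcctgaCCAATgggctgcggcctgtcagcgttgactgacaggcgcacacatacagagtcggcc

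The EGR1 window held 2 CArG boxes, which began 105 and 83 bases before the gene start. Of the 10 genes, 9 had at least 1 window in the promoter table (SUN1 had none), with 20 windows in all, since several genes have alternative starts. No CArG box was found in the 20 windows, against 1.16% of all 35116 windows of the same length. The binding motif of EGR1 itself, GCGTGGGCG, was in 0 of the 20 and in 0.72% of all windows. With shares this low, no match in 20 windows is the usual outcome, so these counts say nothing particular about these genes. CCAAT boxes were in 8 of the 20 windows (40.0%), belonging to 7 genes, against 32.0% of all windows. The 8 include overlapping TMPO windows that hold the same CCAAT boxes. The EMD window held 2 CCAAT boxes, 224 and 115 bases before the gene start, and the SUN2 window shown held 2 at 101 and 57 bases. The printed SYNE1 window held no match, but a window not printed held 1 CCAAT box, 152 bases before its gene start. The SUN2 windows not printed held no match. These are letter matches and show no binding.

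Values are log2 signals as deposited, so a difference of 1 is a 2-fold difference. Signals of different probe sets depend on their probes and were not compared between genes. Median signals of the arrays ran from 6.20 to 6.22 with CXCL12 and from 6.18 to 6.19 untreated. A mean signal of 4.44, the lower quartile (25%) of all probe sets, was the limit under which a probe set was left out as dim; it is a limit on brightness and not a detection call. All 9 measured genes lay above it, among 16086 probe sets tested. Among the arrays, untreated replicate 1 was the least alike: it correlated with the rest at 0.982 on average, where the remaining arrays had averages from 0.987 to 0.989. All 10 T cell markers listed lay above the dim limit, among them CD3E at 11.1 ± 0.06 with CXCL12 and 11.2 ± 0.13 untreated (SD, n = 3 each). Of 11 measured markers of B, myeloid, fibroblast and erythroid cells, 9 also lay above it and 0 passed the test. Of the B cell markers, MS4A1 was dim, while CD79A had 7.93 ± 0.16 with CXCL12 and 7.92 ± 0.17 untreated, and PAX5 had 6.47 ± 0.04 with CXCL12 and 6.33 ± 0.08 untreated (SD, n = 3 each). The groups did not overlap for 2 of the 9, against 9.54% of all tested probe sets in either direction. The 2 were PAX5, which was higher with CXCL12, and the fibroblast marker COL1A1. COL1A1 had 6.58 ± 0.08 with CXCL12 and 6.75 ± 0.01 untreated (SD, n = 3 each). The part of these markers in the values below was not tested.

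None of the 9 genes passed the threshold of limma's adjusted p of 0.05. Across the array, 2 of 16086 probe sets passed (0.0124%), EGR1 and CD69. EGR1 had 7.97 ± 0.17 with CXCL12 and 5.99 ± 0.11 untreated (SD, n = 3 each), a log2 change of 1.98 (3.96-fold, limma adjusted p = 4.52e-05). The limma adjusted p of the 9 genes ran from 0.996 to 0.999. At an unadjusted limma p under 0.05 there was 1 of 9, SYNE1, against 4.73% of all tested probe sets. Log2 changes, CXCL12 minus untreated, ran from -0.24 (EMD) to 0.26 (SYNE1), with 6 positive, 3 negative and a median of 0.04. Over all tested probe sets the median was 0.0023 and 50.7% were positive.

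**Figure D1:**
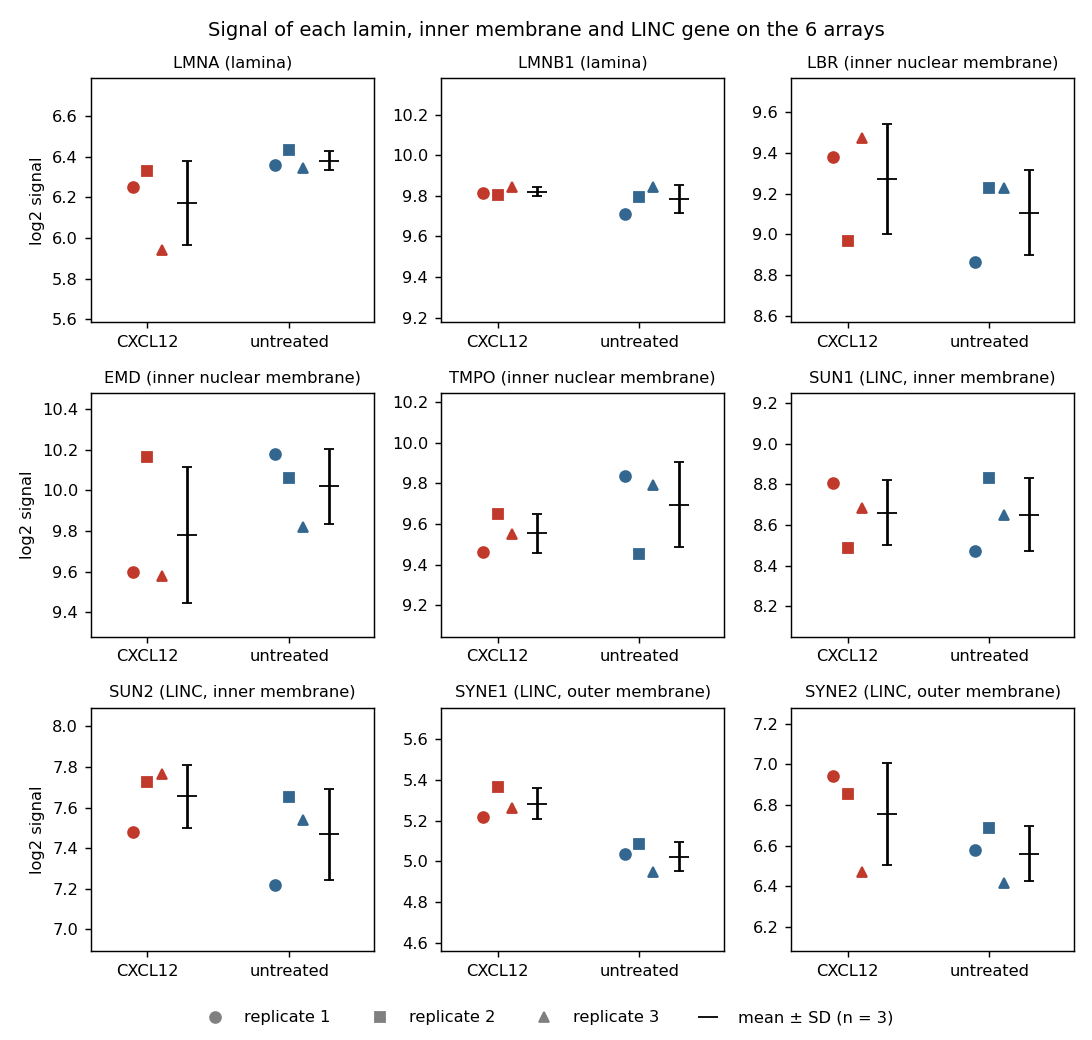
Log2 signal (vertical axis, each panel spanning 1.2 log2 units) of the 9 measured genes in 3 CXCL12 arrays (red) and 3 untreated arrays (blue), with symbols for replicates and the mean ± SD in black. The groups are apart for LMNA and SYNE1 and overlap for the other 7.

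The intervals give the precision of these signal changes after 15 min, as far as the spread of these samples shows it. All 9 genes had a 95% interval inside 2-fold in both directions, as had 99.8% of all tested probe sets. Inside 1.5-fold there were 8 of the 9, against 89.9% of all. The exception was EMD, whose interval reached 0.656 times the untreated signal. LMNB1 had the narrowest interval, from 0.864 to 1.22 times untreated. With 3 arrays a group, the median half-width of an interval over all tested probe sets was 0.29 on the log2 scale (1.23-fold).

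**Figure D2:**
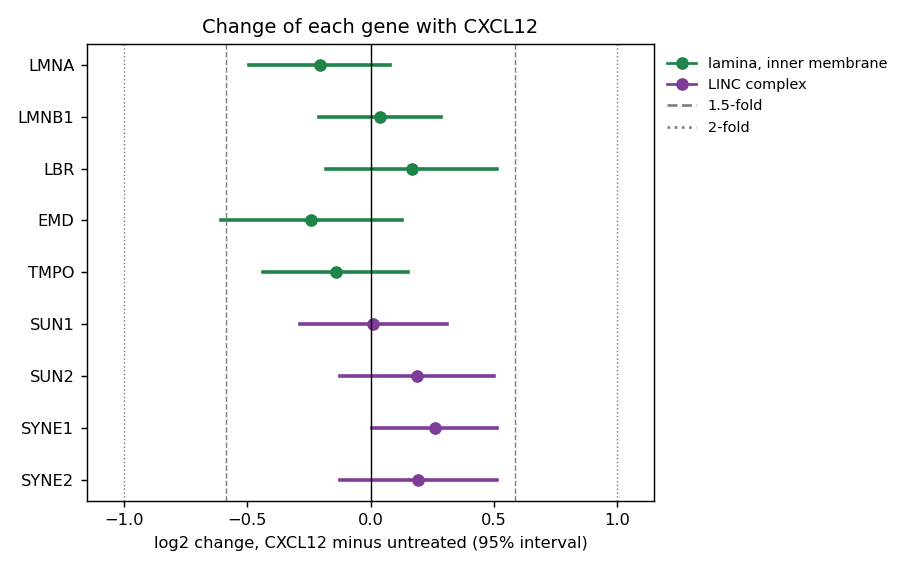
Log2 change with CXCL12 relative to untreated (horizontal axis) of the 9 genes, as points with limma's 95% interval (n = 3 arrays a group); dashed lines mark 1.5-fold and dotted lines 2-fold. The interval includes 0 for every gene except SYNE1 (0.01 to 0.51), and that of EMD alone crosses a 1.5-fold line.

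In the lamina, LMNA encodes lamins A and C, which share a gene and differ by splicing. Its probe set is annotated with 7 transcripts, so the isoforms cannot be told apart. LMNA had 6.25, 6.33 and 5.94 in CXCL12 arrays, against 6.36, 6.43 and 6.35 in untreated arrays. Every CXCL12 array lay below every untreated one, with CXCL12 replicate 2 just under untreated replicate 3 and CXCL12 replicate 3 well below the rest. The log2 change was -0.21 (SE 0.13, 95% interval -0.49 to 0.08, limma adjusted p = 0.996). Without CXCL12 replicate 3 the change was -0.09. Non-overlapping groups with CXCL12 lower were found for 4.48% of all tested probe sets, and for either direction for 9.54%. The share for either direction compares with 2 of the 9 genes here, LMNA and SYNE1, which went in opposite directions.

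LMNB1, the B-type lamin whose farnesyl anchor holds it at the membrane, was the steadiest of the group. It had 9.82, 9.80 and 9.84 in CXCL12 arrays, against 9.71, 9.80 and 9.84 in untreated arrays. CXCL12 values fell inside the untreated range, and the lowest array was untreated replicate 1. For LMNB1 the log2 change was 0.04 (SE 0.11, limma adjusted p = 0.996). Its SD over the 6 arrays was 0.05 on the log2 scale, where the median over all tested probe sets was 0.16. The other 8 genes had SDs from 0.15 to 0.27, and 6 of them lay above that median.

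Of the inner membrane proteins, LBR, the lamin B receptor, tethers heterochromatin to the lamina and is also a sterol reductase. LBR had 9.38, 8.97 and 9.47 in CXCL12 arrays, against 8.86, 9.23 and 9.23 in untreated arrays. The groups overlapped, with CXCL12 replicate 2 and untreated replicate 1 both low. For LBR the log2 change was 0.17 (95% interval -0.18 to 0.51, limma adjusted p = 0.996), and it was 0.05 without untreated replicate 1, 0.07 without CXCL12 replicate 3 and 0.32 without CXCL12 replicate 2.

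EMD encodes emerin, a LEM-domain protein that binds lamins and the chromatin protein BAF. EMD had 9.60, 10.16 and 9.58 in CXCL12 arrays, against 10.18, 10.06 and 9.82 in untreated arrays. CXCL12 replicates 1 and 3 lay below all untreated arrays, while CXCL12 replicate 2 was within their range. For EMD the log2 change was -0.24 (95% interval -0.61 to 0.13, limma adjusted p = 0.996). It was -0.43 without CXCL12 replicate 2, with an unadjusted limma p of 0.0132 and a limma adjusted p of 0.765. Leaving out CXCL12 replicate 1 gave -0.15, CXCL12 replicate 3 -0.14 and untreated replicate 1 -0.16.

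TMPO encodes the LAP2 proteins, of which the membrane forms bind B-type lamins and the alpha form binds A-type lamins inside the nucleus. Its probe set is annotated with 4 transcripts and does not separate them. TMPO had 9.46, 9.65 and 9.55 in CXCL12 arrays, against 9.83, 9.45 and 9.79 in untreated arrays. Untreated replicate 2 lay just below the CXCL12 range and the other untreated arrays above it. For TMPO the log2 change was -0.14 (95% interval -0.43 to 0.15, limma adjusted p = 0.996). Leaving out untreated replicate 1 gave -0.07, untreated replicate 3 -0.09, CXCL12 replicate 1 -0.09 and untreated replicate 2 -0.26.

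In the LINC complex, SUN1 and SUN2 are the inner membrane parts of the bridge, which reach the lamina on the inside and nesprins across the perinuclear space. SUN1 had 8.81, 8.49 and 8.69 in CXCL12 arrays, against 8.47, 8.83 and 8.65 in untreated arrays. Each group spanned almost the same range. The log2 change of SUN1 was 0.01 (95% interval -0.29 to 0.31, limma adjusted p = 0.999).

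SUN2 had 7.48, 7.72 and 7.77 in CXCL12 arrays, against 7.22, 7.65 and 7.54 in untreated arrays. CXCL12 replicates 2 and 3 were above all untreated arrays, and replicate 1 was below untreated replicates 2 and 3. For SUN2 the log2 change was 0.19 (95% interval -0.13 to 0.50, limma adjusted p = 0.996). It was 0.06 without untreated replicate 1, which had the lowest signal.

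SYNE1 encodes nesprin-1, a spectrin-repeat protein of the outer membrane whose long forms bind actin. Its signal lay 0.71 log2 units above the dim limit. SYNE1 had 5.22, 5.37 and 5.26 in CXCL12 arrays, against 5.04, 5.09 and 4.95 in untreated arrays. All CXCL12 arrays were above all untreated ones, as for 5.05% of all tested probe sets. The log2 change was 0.26 (SE 0.12, 95% interval 0.01 to 0.51), with an unadjusted limma p of 0.0461 and a limma adjusted p of 0.996. With any 1 array left out the change was between 0.22 and 0.29, and in none of these 6 fits was the unadjusted limma p under 0.05. Over all 14 alternatives the unadjusted limma p ran from 0.0358 to 0.14 and was under 0.05 in 2. These were array weights (0.0358) and averaged probe sets (0.0461), which repeats the main fit because SYNE1 has 1 probe set.

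SYNE2 encodes nesprin-2, another giant nesprin, which also binds actin and microtubule motors. SYNE2 had 6.94, 6.85 and 6.47 in CXCL12 arrays, against 6.58, 6.68 and 6.42 in untreated arrays. CXCL12 replicates 1 and 2 were above all untreated arrays, and replicate 3 was within their range. The log2 change was 0.19 (95% interval -0.12 to 0.51, limma adjusted p = 0.996). It was 0.34 without CXCL12 replicate 3, with an unadjusted limma p of 0.0389 and a limma adjusted p of 0.99998. Leaving out CXCL12 replicate 1 or untreated replicate 3 gave 0.10 and 0.12.

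By role, the 4 LINC genes had positive changes with a median of 0.19, although that of SUN1 turned negative under 4 of 15 alternatives, median centring among them. The 5 measured lamina and other inner membrane genes had 2 positive and 3 negative changes and a median of -0.14. The difference between these 2 subgroups was not tested, and their values come from the same 6 arrays.

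The variation between arrays within a group touched several of the genes. Untreated replicate 1 held the lowest of the 6 values for LMNB1, LBR, SUN1 and SUN2 and the highest for EMD and TMPO, so it was at an end of the range for 6 of 9 genes. The same array was at an end for 49.2% of all tested probe sets, and its mean absolute deviation was 0.191 over the 9 genes and 0.178 over all tested probe sets, the highest of the 6 arrays in both. CXCL12 replicate 3 was at an end for 4 genes. LBR deviated from its 6-array mean by -0.22 in CXCL12 replicate 2 and -0.33 in untreated replicate 1, while EMD deviated by 0.26 and 0.28 in the same arrays. LBR and EMD had opposite signs in every array except untreated replicate 2. SUN1 followed LBR in CXCL12 replicate 2, with -0.17, and in untreated replicate 1, with -0.18. This likeness was not particular to these genes. Over all tested probe sets, deviations from the group mean in CXCL12 replicate 2 and untreated replicate 1 correlated at 0.28. That was the highest value of any CXCL12 and untreated pair. What part these arrays have in the group differences was not tested beyond leaving each array out.

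**Figure D3:**
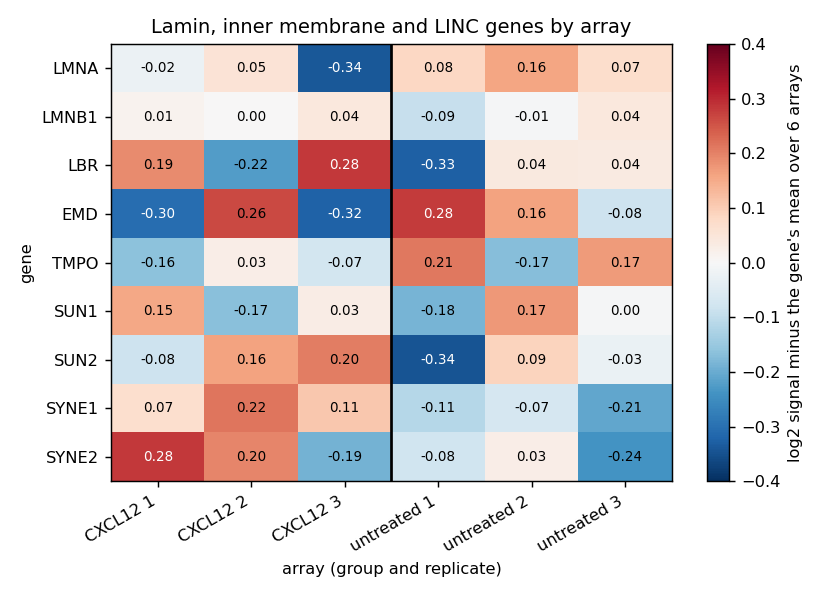
Log2 signal of each gene (rows) on each array (columns, CXCL12 left of the line, untreated right) minus that gene's mean over the 6 arrays, from -0.34 to 0.28. LBR and EMD take opposite signs in every array except untreated replicate 2, and LMNB1 stays within 0.09 of its mean.

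EMD varied most of the 9 genes over the 6 arrays (SD 0.27). The tested probe sets whose pattern came closest to it were NCOA1, CNPPD1 and RTF1. The measure was the root mean square difference between the deviations from each 6-array mean, which was 0.0394, 0.0417 and 0.0649 log2 units for these 3 over 6 arrays, where the deviations of EMD itself had a root mean square of 0.251. NCOA1 is a nuclear receptor coactivator and RTF1 a transcription elongation factor. Their nearness to EMD follows from a search of all named probe sets and is a description of these arrays.

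Other genes of the nuclear envelope gave the setting for these values. Of 43 listed genes, 37 were tested, 3 were dim and 3 had no named probe set here. None passed limma's adjusted p of 0.05, and 0 had an unadjusted limma p under 0.05, against 4.73% of all tested probe sets. The smallest unadjusted limma p was 0.0509 (IRAG2), close to the 0.0461 of SYNE1. There were 18 positive and 19 negative changes, with a median of -0.01. The groups did not overlap for 2 of the 37 (5.41%), both lower with CXCL12, against the 9.54% of all tested probe sets given above.

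Among 10 tested LINC partners and other SUN or KASH proteins, 3 had positive and 7 negative changes (median -0.02). IRAG2, an endoplasmic reticulum protein of lymphoid cells with a KASH-like end, had 6.69, 6.91 and 6.86 in CXCL12 arrays, against 7.10, 6.96 and 7.23 in untreated arrays. These groups did not overlap, by a small margin between CXCL12 replicate 2 and untreated replicate 2. The log2 change was -0.27, with an unadjusted limma p of 0.0509 and a limma adjusted p of 0.996. SPAG4, a SUN-domain protein, had 4.84 ± 0.19 with CXCL12 and 5.00 ± 0.30 untreated (SD, n = 3 each).

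Lamin A and the B-type lamins mature by farnesylation of their C-terminal end, followed by proteolysis and methylation. Of 4 tested enzymes of these steps, 1 had a positive and 3 a negative change (median -0.09). FNTA, the alpha subunit of farnesyltransferase, had 6.60, 6.70 and 6.72 in CXCL12 arrays, against 7.03, 6.76 and 6.94 in untreated arrays. All CXCL12 arrays were lower than all untreated ones, and the log2 change was -0.24 with a limma adjusted p of 0.996. FNTB, the beta subunit, had 8.06 ± 0.12 with CXCL12 and 8.21 ± 0.24 untreated (SD, n = 3 each), and its groups overlapped.

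Of 14 tested other inner membrane and lamina-binding proteins, 8 had positive and 6 negative changes (median 0.04), and no groups were apart. NRM, the multipass protein nurim, had 8.63, 8.58 and 8.56 in CXCL12 arrays, against 9.38, 8.68 and 8.60 in untreated arrays. Its log2 change of -0.30 goes with the high value of untreated replicate 1. LEMD2, a LEM-domain protein like emerin, had 7.78, 7.70 and 7.89 in CXCL12 arrays, against 7.12, 7.82 and 7.66 in untreated arrays, where untreated replicate 1 was low.

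The ESCRT-III machinery seals the nuclear envelope after mitosis or rupture. Of its 9 tested genes, 6 had positive and 3 negative changes (median 0.03), and no groups were apart. CC2D1B, a regulator of ESCRT-III during envelope reformation, had 5.79 ± 0.16 with CXCL12 and 5.52 ± 0.34 untreated (SD, n = 3 each). SPAST, a microtubule-severing enzyme that ESCRT-III recruits, had 6.51 ± 0.20 with CXCL12 and 6.35 ± 0.16 untreated (SD, n = 3 each). The limma adjusted p was 0.996 for both.

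**Figure D4:**
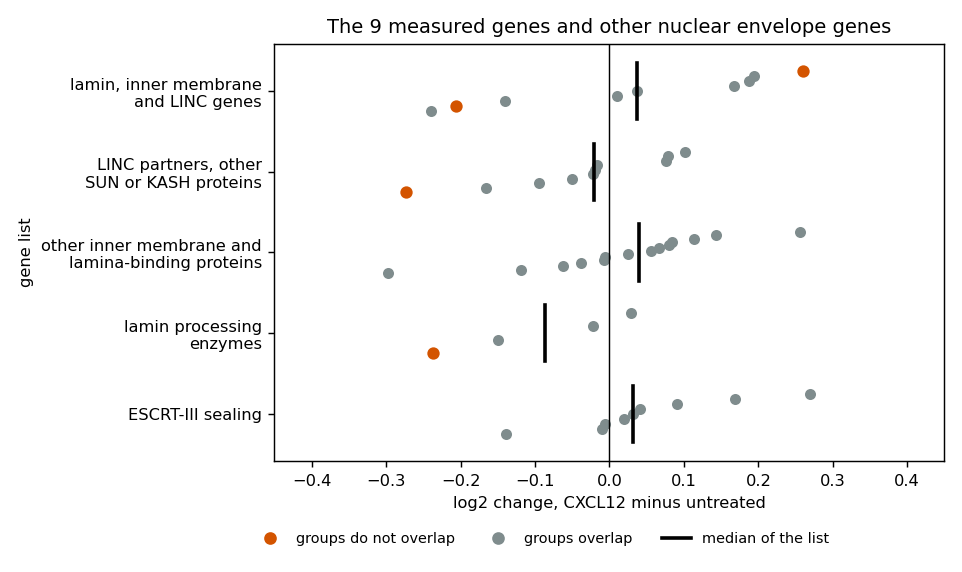
Log2 change with CXCL12 relative to untreated (horizontal axis) of the 9 measured genes and of 4 lists of other nuclear envelope genes (rows), with 1 point a gene and a black bar at each list's median; orange points are genes whose groups do not overlap. The changes of the 9 genes run from -0.24 to 0.26 and those of the 37 others from -0.30 to 0.27, and the orange points are LMNA, SYNE1, IRAG2 and FNTA.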

How the data were processed

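RNA of 6 Jurkat samples, 3 with CXCL12 and 3 untreated, was measured on 1 Affymetrix array each. The deposited table holds 1 log2 value per probe set and array. The submitters' processing notes name RMA (robust multi-array averaging, which corrects background, normalizes between arrays and summarises probes) and the Transcriptome Analysis Console. For neither are settings given in the sources used here, nor is a genome build. Scanner files were not used here. Names came from the platform annotation, which gives 1 symbol for 17709 of 21448 probe sets, several for 0 and none for 3739.

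The log2 values were fitted unchanged in R 4.3.3 using limma 3.58.1 (functions lmFit and eBayes; two-sided; no covariates) after leaving out the lowest 25% of probe sets by mean. Adjusted p-values are Benjamini-Hochberg over 16086 probe sets. The fit was also run on 20 simulated sets. Their noise was independent and their planted changes were larger than those of the lamin, inner membrane and LINC genes. These sets therefore do not show how the fit performs for these genes. The genes described and the lists were chosen with earlier results of these data known. The other nuclear envelope genes were named by rule: per list, the pair with the smallest p and those whose groups do not overlap, and the 3 probe sets closest in pattern to the most variable gene. Markers named were chosen after their values were seen. Alternatives were other dim filters, renormalization, a replicate block, variance models, array weights, averaged probe sets, an unadjusted threshold and leaving out each array.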

Additional observations from a re-analysis of the deposited data

How the results depend on the processing

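The count of 9 genes past limma's adjusted threshold was 0 under each alternative except the unadjusted p, where it was 1 (SYNE1). That of the other nuclear envelope genes was 0 in each setting, the unadjusted p included. Over all probe sets the count was 2. It was 1 under cyclic loess, under median centring and where dim probe sets were kept. With the lower 50% left out it was 3, with a trended variance model also 3, and under array weights 4. It was 761 under the unadjusted p and between 1 and 2 in the fits that each lacked an array. The median log2 change of the 9 genes was 0.0369. It was 0.0724 with quantile normalization again, 0.0585 under cyclic loess, 0.0155 under median centring and 0.0137 under array weights. With the lower 50% left out it was 0.0237 over the 8 genes that stayed. Fits that lacked an array gave 0.000612 (no untreated replicate 1) at the lowest and 0.0999 (no untreated replicate 2) at the highest. Other dim filters, the replicate block, the trended variance model and averaged probe sets leave a log2 change as it was, so directions there were fixed in advance. Of 134 refitted changes of single genes, those settings included, 130 kept their direction and 4 turned, all of SUN1. Its change was -0.0108 under median centring, and leaving out CXCL12 replicate 1, CXCL12 replicate 3 or untreated replicate 1 gave -0.0634, -0.00157 and -0.0793. Its highest value was 0.0999, when untreated replicate 2 was left out. Median centring lowered the changes of all 9 genes alike, as each CXCL12 array had a higher median signal than each untreated array. The causes of the other turns were not tested. Averaging probe sets changed nothing, since each gene had 1. The filter on the lower 50% removed SYNE1. The labels state no pairing, so the numbers were not taken as pairs. Deviations from the group mean correlated at -0.19, -0.11 and 0.11 for same-numbered arrays. For differently numbered arrays they correlated at -0.26 to 0.28. Such deviations sum to 0 within a group, so these correlations cannot decide on pairing. The replicate block gave 0 of the 9 genes, 2 probe sets and a median of 0.0369. The number of arrays limits the precision.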
